A study of Homo sapiens with 24 samples.

Results

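Long intergenic noncoding RNAs are transcripts that lie between protein-coding genes and are not translated into a known protein. Those with no established function carry a systematic LINC symbol. As a class they are transcribed at lower levels than messenger RNAs and are often restricted to few cell types, and some act in the nucleus on chromatin or on the genes beside them. In human pluripotent stem cells a number of them are known to be transcribed under the factors that maintain the undifferentiated state. The genes described here were chosen by symbol and by level. From the probe sets that the array annotation assigns to 1 gene symbol, each LINC gene was represented by its brightest probe set, and genes with a mean log2 value of at least 6 over all 24 arrays were kept. This gave 175 of 840 LINC genes, among 19775 genes with a probe set of their own. Because level chose the members, their levels are given as a description only.

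RNA came from H1, H9 and HSF1 cells, 3 lines derived from human embryos, and was hybridised to a human genome-wide expression array. Each line first contributed 1 array to each of 4 groups. Feeder-supported (FS) cells, grown on mouse embryonic fibroblasts, received either AZD3965, an inhibitor of the lactate and pyruvate carrier MCT1, at 250 nM for 5 days, or the solvent DMSO for 5 days. Feeder-free (FF) cells received the same pair of treatments. In the second experiment feeder-free H9 and HSF1 cells were held in fibroblast-conditioned medium or in unconditioned medium, with 3 biological replicates for each line and medium. The study's design gives 24 hours for the conditioned medium, whereas the sample labels give 5 days. A group of the first experiment holds 3 lines, so its spread is that between lines, and a group of the second holds 3 replicates of 1 line. The labels do not say whether the fibroblasts were removed before RNA was taken, and fewer stem cells or less RNA per cell cannot be told apart in such bulk samples.

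Values were deposited as log2 RMA intensities, and no detection call accompanied them. Array medians lay between 6.09 and 6.35. The 12 pluripotency markers with a probe set, of 15 listed, were above the array median on all 24 arrays. Their summed linear value was 42800 to 68550 on the FS arrays and 75035 to 81496 on the FF arrays of the first experiment. Of 7 endoderm genes, 5 to 6 were above the array median on the FS arrays and 1 to 4 on those FF arrays, with sums of 821 to 9175 and 353 to 502. Of 5 neuroectoderm genes 4 to 5 were above the array median on the FS arrays and 2 to 3 on those FF arrays. Their sums under DMSO were 1421 to 2177 in FS and 1678 to 2271 in FF cells. Under the inhibitor they were 1245 to 1979 in FS and 569 to 668 in FF cells. Of 24 fibroblast genes, 18 to 21 were above the array median on the 6 FS arrays and 15 to 19 on the 6 FF arrays of the first experiment, and their summed linear value was 11730 to 38100 and 8788 to 16360, with no gene at 0 on this scale. Both FS HSF1 arrays stood apart, with correlations of 0.860 to 0.961 to the other 22 arrays, against 0.948 to 0.998 among those 22. The interquartile width was 2.45 on these arrays, and the others had widths of 2.66 to 3.30. Each FS result below therefore also has values without them where the call changed.

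The promoters of 5 members on which the later comparisons turn are printed to show how unlike they are in base composition. They are RefSeq sequences on GRCh38.p14, from 250 bases before the transcription start to 50 bases after it. They were read 5′ to 3′ on the gene's strand, and capitals mark matches to the motifs named after them. LINC01356 lies at chr1:112850594-112850893 on the minus strand, LINC01844 at chr5:142745350-142745649 on the plus strand and LINC01896 at chr18:78979642-78979941 on the minus strand. LINC00664 lies at chr19:21483465-21483764 and LINC00173 at chr12:116533172-116533471, both on the plus strand.
LINC01356: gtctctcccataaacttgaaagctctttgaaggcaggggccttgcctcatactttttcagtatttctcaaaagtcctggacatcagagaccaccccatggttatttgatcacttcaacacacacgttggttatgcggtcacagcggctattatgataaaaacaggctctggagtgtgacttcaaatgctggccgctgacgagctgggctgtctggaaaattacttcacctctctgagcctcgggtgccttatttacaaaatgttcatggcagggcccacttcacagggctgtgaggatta
LINC01844: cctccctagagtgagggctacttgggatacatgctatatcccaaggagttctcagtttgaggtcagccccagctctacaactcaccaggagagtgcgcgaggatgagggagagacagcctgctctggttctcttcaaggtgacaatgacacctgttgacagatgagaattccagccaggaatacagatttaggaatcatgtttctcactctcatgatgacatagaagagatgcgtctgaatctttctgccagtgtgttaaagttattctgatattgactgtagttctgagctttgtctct
LINC01896: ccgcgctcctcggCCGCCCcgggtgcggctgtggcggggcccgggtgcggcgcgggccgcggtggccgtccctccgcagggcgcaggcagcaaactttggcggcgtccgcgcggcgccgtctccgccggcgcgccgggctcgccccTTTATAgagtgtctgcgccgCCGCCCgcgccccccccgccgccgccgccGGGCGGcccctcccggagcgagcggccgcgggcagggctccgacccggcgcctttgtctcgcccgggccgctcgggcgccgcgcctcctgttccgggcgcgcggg
LINC00664: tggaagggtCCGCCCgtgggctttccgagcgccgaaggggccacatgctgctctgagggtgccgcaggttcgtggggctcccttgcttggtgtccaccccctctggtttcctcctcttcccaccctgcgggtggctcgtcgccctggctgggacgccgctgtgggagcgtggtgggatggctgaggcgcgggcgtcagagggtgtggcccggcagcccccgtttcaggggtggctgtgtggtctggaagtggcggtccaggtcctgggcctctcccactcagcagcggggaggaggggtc
LINC00173: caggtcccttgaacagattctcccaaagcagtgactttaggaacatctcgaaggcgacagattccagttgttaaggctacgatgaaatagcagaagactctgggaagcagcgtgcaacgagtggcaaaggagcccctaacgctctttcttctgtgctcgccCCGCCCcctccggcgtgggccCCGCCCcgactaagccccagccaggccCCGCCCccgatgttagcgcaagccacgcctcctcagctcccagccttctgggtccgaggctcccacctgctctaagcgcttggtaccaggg
The LINC01896 window was 84% G and C with 59 CG pairs, and that of LINC00664 was 70.3% with 20 pairs. LINC00173 had 61% and 18 pairs. The windows of LINC01356 (47.7%, 6 pairs) and LINC01844 (46.3%, 3 pairs) were the poorest of the 5 in these bases. LINC01896 held 3 matches to the GC box and 1 to the TATA box, LINC00173 held 3 GC boxes and LINC00664 held 1, while none of the searched letters occurred in the other windows.

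Across the set, 133 members matched a RefSeq promoter, out of 27305 promoters of the same length. Both strands were searched. The GC box GGGCGG was present in 39.1% of member promoters and 44.6% of all promoters, and the box CCAAT in 40.6% and 35.7%. The TATA box TATAAA was in 12.03% of members and 11.95% of all promoters. The octamer ATGCAAAT, the letters recognised by POU factors such as OCT4, was in 2.26% of members and 1.80% of all promoters. The SOX letters CATTGTT were in 2.26% and 3.38%, and the cyclic AMP response element TGACGTCA in 2.26% and 1.98%. Among the 40 matched members with a mean of at least 7, 52.5% held a GC box and 60% a CCAAT box, against 33.3% and 32.3% of the 93 dimmer ones. A match describes the letters only.

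Most members lay close to the middle of the arrays. The median of the 175 means was 6.58, and 123 members averaged from 6 to below 7, 52 at least 7 and 17 at least 8. In 125 members all 8 group means reached 6, and 50 fell below 6 in some group. Only 79 members exceeded the array median on all 24 arrays, 40 of them with a mean of at least 7. The word expressed thus follows from the level rule, and for the dimmer members level alone does not separate a transcript from background hybridisation. The members just inside the limit were LINC00824 at 6.0021, LINC02443 at 6.0022, LINC01366 at 6.02, LINC01281 at 6.03 and LINC01723 at 6.03. Those just outside were LINC00092 at 5.99, LINC01482 at 5.99, LINC02944 at 5.98, LINC01208 at 5.96 and LINC00479 at 5.96.

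The brightest member was LINC00623 with a mean of 10.43, followed by LINC00621 at 10.24 and LINC01000 at 9.22. All 3 are read by probe sets of the type whose probes also match other transcripts, so their levels are uncertain. LINC00339 averaged 8.98, LINC00294 8.90, LINC01315 8.80, LINC01356 8.59, and LINC01224 and LINC01896 8.54 each. LINC02210 (8.41), LINC00960 (8.38) and LINC01210 (8.30) completed the 12 brightest. These are values of different probe sets, which bind with different strength, so their order is not an order of transcript abundance. Of the LINC genes looked for by name, LINC00458 (7.62), LINC00545 (8.21), LINC00665 (7.80), LINC00467 (7.80), LINC00667 (7.52), LINC01844 (7.31) and LINC00937 (7.01) were members. LINC00261, known from endoderm, averaged 5.52, LINC01234 5.05 and LINC00963 4.84, all under the limit.

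**Figure D1:**
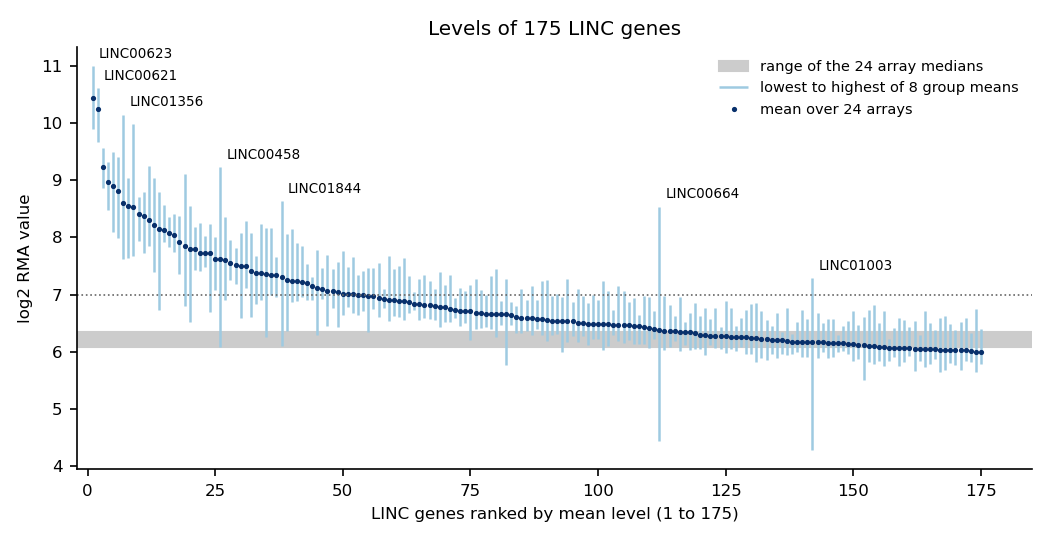
The 175 LINC genes are ranked from left to right by mean log2 RMA value over 24 arrays (dark points), with a light bar from the lowest to the highest of the 8 group means and a grey band for the range of array medians (6.09 to 6.35). Points run down from 10.43 into the band, and 52 lie at or above the dotted line at 7.

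All 175 members were annotated as long noncoding RNA in RefSeq, and 11 overlapped the span of a coding gene. They were spread over the genome, with 24 on chromosome 1, 12 on chromosome 7 and 11 each on chromosomes 5, 12 and 20. Each of 103 members had 1 probe set and 72 had several. The probe set was of the plain type for 141 members, and 9 used the cross-matching type. In 124 members the highest of the 8 group means was in an FS group, 105 of them members below 7 and 19 at or above 7. By contrast HSF1 in conditioned medium was highest for 16, HSF1 in unconditioned medium for 12 and H9 in unconditioned medium for 11. The level rule took in the FS arrays, so a member could pass it through them, and nothing is read from these counts. In 5 members only the FS group means reached 6.

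**Figure D2:**
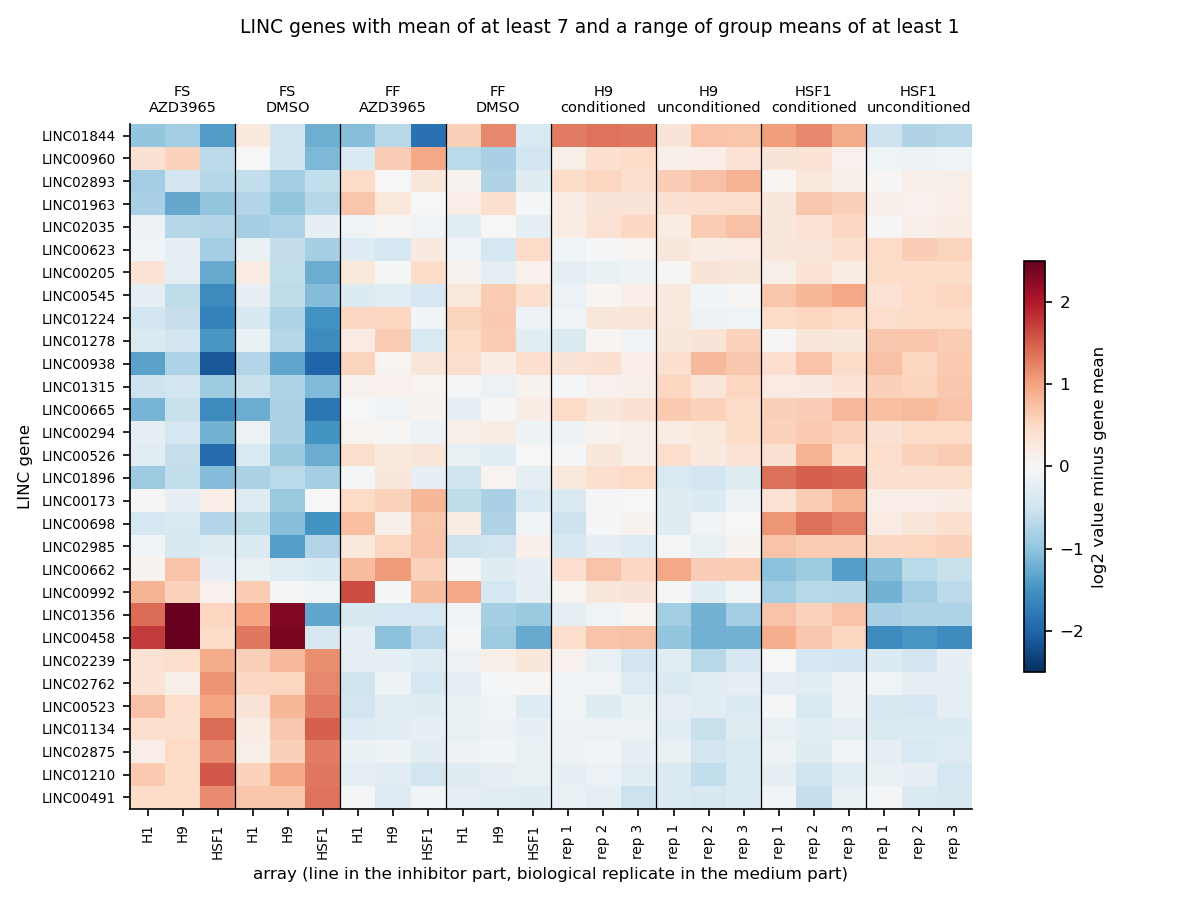
Log2 value minus the gene's mean on each of 24 arrays (columns, 3 per group, labelled by line or replicate) for the 30 members with a mean of at least 7 and a range of group means of at least 1. LINC00458 and LINC01356 are high on most FS arrays and in conditioned medium, and a lower block led by LINC01210 and LINC00491 is high on the FS arrays, most on those of HSF1.

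The first comparison set FS cells against FF cells of the same lines, which asks how fibroblast support changes these transcripts. LINC00458, reported in human stem cells to bind SMAD2 and SMAD3, was the most raised member under either treatment. Under DMSO it had log2 values of 8.93, 9.97 and 7.22 in FS H1, H9 and HSF1 cells, against 7.59, 6.74 and 6.35 in FF cells. FS was above FF within every line, although FS HSF1 was below FF H1. The difference was 1.82 (SE 0.47, 3.52-fold, limma adjusted p = 0.0174). Under the inhibitor it had 9.37, 10.19 and 8.11 in FS cells, against 7.39, 6.59 and 6.96 in FF cells, and these groups did not overlap. That difference was 2.24 (SE 0.47, 4.74-fold, limma adjusted p = 0.0075). The call under DMSO was lost without H1 (2.05, limma adjusted p = 0.0694) or without H9 (1.11, 0.0849), and under the inhibitor without H1 (2.38, 0.0574). Its other 2 probe sets also read higher in FS cells, by 2.67 and 0.85 under DMSO. The summed endoderm genes were likewise highest in FS H9, at 5607 under DMSO and 9175 under the inhibitor, against 415 and 353 in FF H9, and their part in the rise was not tested.

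LINC01356, a gene without an established role, was also high in FS cells, but less evenly across lines. Under the inhibitor it had 9.99, 11.31 and 9.13 in FS H1, H9 and HSF1 cells, against 8.19, 8.15 and 8.16 in FF cells. The groups were well apart, and the difference of 1.98 (SE 0.56, 3.93-fold) passed the test with a limma adjusted p of 0.0194. Under DMSO it had 9.57, 10.91 and 7.29 in FS cells, against 8.51, 7.77 and 7.66 in FF cells. FS HSF1 was here the lowest of the 6 arrays, and the difference of 1.28 (SE 0.56) did not pass the test (limma adjusted p = 0.0819). Within lines it was 1.06 in H1, 3.14 in H9 and -0.37 in HSF1. Without H1 the difference under the inhibitor was 2.06 (limma adjusted p = 0.0876), and without H9 1.38 (0.0608). In RefSeq the coding gene nearest to LINC01356 is SLC16A1, which encodes MCT1 and is not analysed here.

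Among all members, 76 of 175 passed the threshold under DMSO at a limma adjusted p of 0.05 over the 17218 genes tested, 63 higher and 13 lower in FS cells. The share of all genes called was 39.3%, with 15.2% higher and 24.1% lower. Under the inhibitor 93 passed, 73 higher and 20 lower, against 47.1% of all genes, 19.3% higher and 27.8% lower. The 2 sets of calls shared 64 members, 84.2% of the DMSO calls and 68.8% of the inhibitor calls, and all 64 had the same direction. All 63 raised and all 13 lowered members under DMSO moved the same way in each of the 3 lines. The calls were made on these same line pairs, so this agreement is no separate support. Few members moved strongly, since 4 raised and 6 lowered ones differed by at least 2-fold. The shared, same-direction and 2-fold counts were not made over all genes, so nothing about LINC genes is read from them. The counts were low without H1 or H9, and so were those of all genes. Under DMSO 7 members were called without H1 and 3 without H9, when 5.49% and 2.14% of all genes were, and 56 without HSF1 (37.5% of all genes). Under the inhibitor the counts were 4, 37 and 70, when 4.59%, 18.1% and 38.4% of all genes were called. With only the FS HSF1 arrays left out, 42.9% of members and 48.6% of all genes were called under DMSO. With all arrays these were 43.4% and 39.3%. Under the inhibitor they were 47.4% and 47.1% without these arrays, against 53.1% and 47.1% with them. A larger share of members than of all genes thus did not hold without them.

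The balance between rises and falls went with level. Of the 123 members from 6 to below 7, 51 were higher and 2 lower in FS cells under DMSO, with a median difference of 0.48. Among all 3177 genes of that level 28.3% were higher and 11.8% lower, with a median of 0.35. The level rule and these level classes both took in the FS arrays, so a dim gene could enter through them. Of the 52 members at or above 7, 12 were higher and 11 lower, with a median of 0.03, whereas the 10581 genes of that level were higher in 5% and lower in 34.3%, with a median of -0.51. Over all members the median was 0.42, and over all genes -0.19. Without the FS HSF1 arrays these were 0.28 and -0.11. Line by line the dimmer members had a median of 0.30 in H1, 0.30 in H9 and 0.85 in HSF1, and all genes of that level 0.17, 0.20 and 0.66. Array medians were 6.17 to 6.35 in FS and 6.09 to 6.15 in FF cells, and interquartile ranges 2.45 to 2.85 and 3.08 to 3.30. Under DMSO the fibroblast gene sum was higher in FS than in FF cells of H1 (29258 against 16360) and H9 (15125 against 8788). In HSF1, the line with the largest rise, it was 11730 against 11756. The part of the narrower spread, and of the fibroblast gene sum, in the rise of dim members was not tested.

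**Figure D3:**
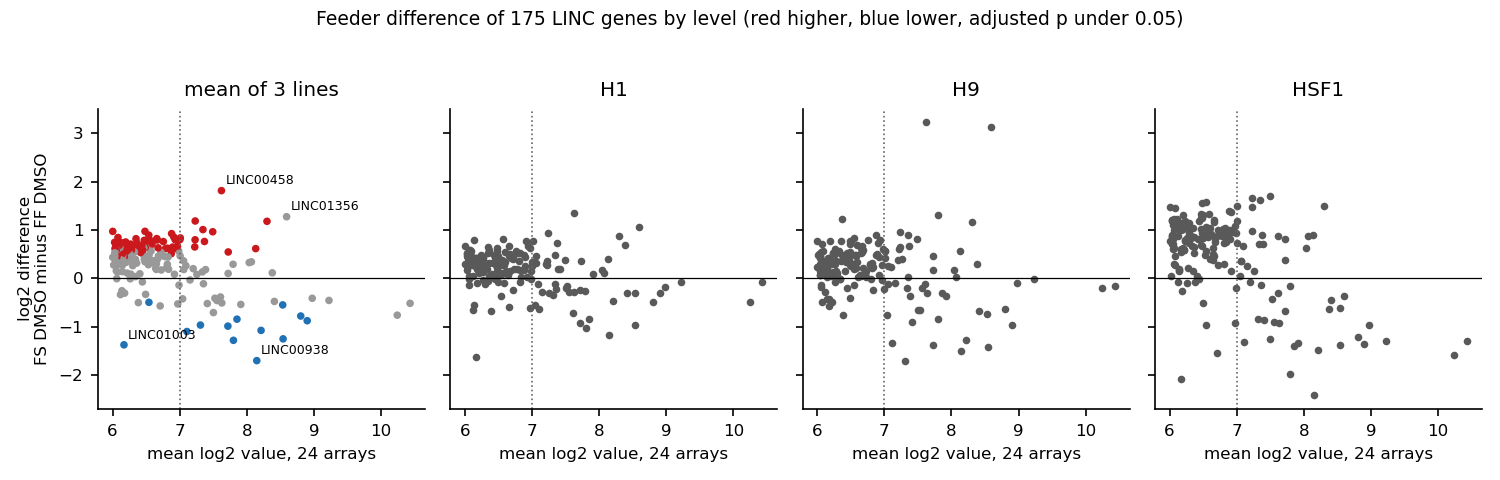
Log2 difference of FS DMSO minus FF DMSO (vertical) against mean log2 value over 24 arrays (horizontal) for each of 175 members, as the mean of 3 lines (left, red higher and blue lower at an adjusted p under 0.05) and for each line. Dim members lie mostly above 0, most in HSF1 (median 0.85), and members above the dotted line at 7 scatter on both sides.

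Among the bright raised members, LINC01210 had 8.87, 9.25 and 9.63 in FS DMSO cells, against 7.99, 8.09 and 8.12 in FF DMSO cells, a difference of 1.18 (SE 0.26, limma adjusted p = 0.0102). LINC00491 had 7.92, 7.93 and 8.59, against 6.98, 6.97 and 6.92, a difference of 1.19 (SE 0.21, limma adjusted p = 0.00453). Both were highest in FS HSF1 and their groups did not overlap. The other 2 probe sets of LINC00491 read -0.12 and 0.00, so its rise holds for 1 of its 3 probe sets. LINC00523 (1.01) and LINC01134 (0.96) were also among the largest rises under DMSO. LINC02226, LINC02443 and LINC01875, which lie nearer the limit of 6, rose by 0.97, 0.97 and 0.93. The level rule took in the FS arrays, and LINC02443 (mean 6.0022) passed it with their higher values, so its rise is only described. Under the inhibitor LINC01056 (1.04), LINC02287 (1.03) and LINC01539 (1.03) joined the 8 largest rises. LINC02287 and LINC01539 also lie nearer the limit, and the level rule took in the FS arrays where they read higher. Their rises are therefore only described.

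The largest fall was that of LINC00938, with 7.42, 6.84 and 6.16 in FS DMSO cells, against 8.60, 8.34 and 8.58 in FF DMSO cells. The groups did not overlap, and the difference was -1.70 (SE 0.30, limma adjusted p = 0.00484). Its 3 other, dimmer probe sets read 0.33, -0.36 and 0.47, so they do not show this fall. LINC00665 had 6.56, 7.001 and 5.9999, against 7.59, 7.83 and 7.98, a difference of -1.28 (SE 0.25, limma adjusted p = 0.00713). All 4 of its probe sets were lower in FS cells, by -0.53 to -1.28. LINC01224 had 8.14, 7.77 and 7.02, against 9.10, 9.20 and 8.39, a difference of -1.25 (limma adjusted p = 0.00278). Its nearest coding gene ZNF91, a KRAB zinc finger repressor of retrotransposons, fell as well (-1.20, limma adjusted p = 0.0486).

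LINC01003 lay below the array median in both groups, with 4.42, 4.80 and 3.63 in FS DMSO cells, against 6.04, 5.23 and 5.70 in FF DMSO cells, so the difference of -1.37 gives its direction better than its size. LINC01278 (-1.10), LINC00545 (-1.08) and LINC01963 (-0.99) also fell under DMSO. The second, dimmer probe set of LINC01278 read 0.62. Under the inhibitor the falls of LINC01003 (-1.91), LINC00938 (-1.72), LINC01963 (-1.34), LINC00526 (-1.25), LINC00698 (-1.04) and LINC02893 (-0.93) were among the 8 largest. Of the 59 members called under DMSO whose nearest coding gene was tested, 12 had a neighbour called the same way and 15 one called the opposite way. Under the inhibitor these were 20 and 17 of 70. Neighbours of other genes were not counted, so no link between members and neighbours is read from these counts.

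The second comparison set AZD3965 against DMSO, to ask how blocking lactate transport changes these transcripts. In FF cells 2 members passed, LINC00173 higher and LINC01844 lower, against 0.842% of all genes, 0.604% higher and 0.238% lower. LINC00173 had 7.56, 7.64 and 7.88 in FF inhibitor cells, against 6.43, 6.25 and 6.69 in FF DMSO cells of H1, H9 and HSF1. The groups were apart by more than the range within either, and the difference was 1.23 (SE 0.17, 2.35-fold, limma adjusted p = 0.00768). Its second, dimmer probe set read 0.21. LINC01844 had 6.25, 6.61 and 5.44 in FF inhibitor cells, against 7.91, 8.51 and 6.92 in FF DMSO cells. It was lower in each line and the groups did not overlap, with a difference of -1.68 (SE 0.25, 3.21-fold, limma adjusted p = 0.00945). The neuroectoderm sum was 569 to 668 in FF inhibitor cells, against 1678 to 2271 in FF DMSO cells, and its part was not tested.

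In FS cells 0 members passed (0.00581% of all genes did) by limma, and 4 had an unadjusted p under 0.05. LINC00173 had 7.09, 6.86 and 7.23 in FS inhibitor cells, against 6.74, 6.13 and 7.05 in FS DMSO cells, which is a smaller gap in each line than without feeders. LINC01844 had 6.35, 6.44 and 5.92, against 7.56, 6.81 and 6.08. The test of the difference between culture systems called 0 members (0.0174% of all genes), and 3 had an unadjusted p under 0.05, so a dependence on feeders was not shown for either gene. Over both systems the mean inhibitor effect was 0.83 for LINC00173 (limma adjusted p = 0.0153) and -1.13 for LINC01844 (0.0181), the 2 members called among 0.639% of all genes. The FF calls of both genes were lost when H1 or H9 was left out, at limma adjusted p values from 0.145 to 0.291, with sizes of 1.16 to 1.29 and -1.57 to -1.69. Without the FS HSF1 arrays 14 members (8%) were called in FF cells, when 9.67% of all genes were.

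The third comparison set conditioned against unconditioned medium in feeder-free cells, which asks what factors shed by fibroblasts do without contact. LINC00458 rose in both lines. It had 8.05, 8.33 and 8.35 in H9 in conditioned medium, against 6.65, 6.43 and 6.45 in unconditioned medium. In HSF1 it had 8.53, 8.29 and 8.15, against 6.06, 6.16 and 6.05. The replicates were tight and the groups far apart, with differences of 1.73 (SE 0.11, 3.33-fold, limma adjusted p = 3.84e-08) in H9 and 2.23 (SE 0.11, 4.71-fold, 8.79e-10) in HSF1. The HSF1 values in unconditioned medium lay near the array median, so that fold is uncertain. All 3 of its probe sets read higher, by 0.46 to 2.41 in H9 and 0.72 to 3.29 in HSF1. The endoderm sum was 405 to 430 in H9 in conditioned medium, against 317 to 357 in unconditioned medium, and 385 to 426 in HSF1, against 325 to 349, and its part was not tested. The neuroectoderm sum was 2643 to 3101 in HSF1 in conditioned medium, against 1618 to 1778, and 1697 to 1930 in H9, against 1426 to 1609.

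LINC01356 had 8.36, 8.49 and 8.66 in H9 in conditioned medium, against 7.74, 7.41 and 7.74 in unconditioned medium. In HSF1 it had 9.30, 9.17 and 9.30, against 7.79, 7.81 and 7.83. Its rise was larger in HSF1 (1.45, limma adjusted p = 3.22e-08) than in H9 (0.88, 1.61e-05), and the test of that difference gave 0.57 (SE 0.14, limma adjusted p = 0.0196). LINC01844 had 8.60, 8.67 and 8.63 in H9 in conditioned medium, against 7.63, 8.02 and 8.01. In HSF1 it had 8.36, 8.51 and 8.24, against 6.78, 6.56 and 6.59. The baselines were unequal, and the rises were 1.73 in HSF1 and 0.75 in H9, which differed by 0.98 (SE 0.15, limma adjusted p = 0.0015). The same gene was lower in FS than in FF cells under DMSO (-0.97, SE 0.25, limma adjusted p = 0.0176), a call lost without H9 (-0.60, 0.14). Under the inhibitor its FS minus FF difference was 0.13 (limma adjusted p = 0.657), so the fall was not seen under that treatment.

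LINC01896 had 8.79, 8.96 and 9.02 in H9 in conditioned medium, against 8.15, 8.06 and 8.24. In HSF1 it had 9.92, 10.02 and 9.99, against 8.93, 8.95 and 8.98. It rose by 0.77 (SE 0.08, limma adjusted p = 4.91e-06) and 1.03 (SE 0.08, 1.02e-07). Its second, dimmer probe set read 0.26 in H9 and 0.00 in HSF1. The nearest coding gene, SALL3, which encodes a zinc finger protein of the spalt family, rose with it, by 0.81 in H9 and 0.77 in HSF1 (limma adjusted p = 1.06e-05 and 9.93e-06). LINC01896 instead fell in FS cells, by -0.55 under DMSO and -0.88 under the inhibitor (limma adjusted p = 0.036 and 0.00721), and SALL3 by -0.76 and -0.79. The second probe set of LINC01896 read 0.64 and 0.46 in FS cells, so it does not show this fall.

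**Figure D4:**
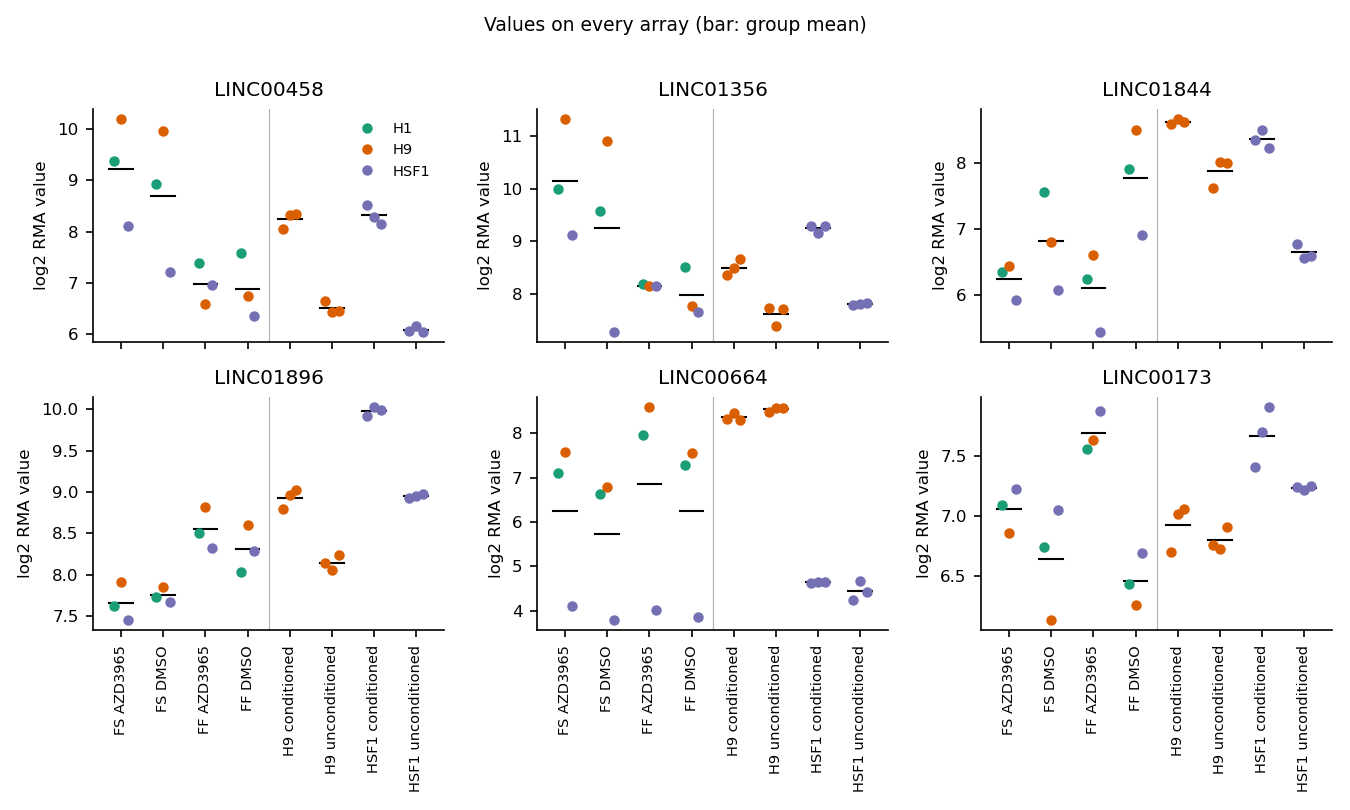
Log2 RMA value on every array for 6 members over the 8 groups, coloured by line, with a bar at each group mean and a grey line between the 2 experiments. LINC00458 is higher with feeders within each line and in conditioned medium, and so is LINC01356 except in FS HSF1 under DMSO. LINC01844 is lower under the inhibitor in FF cells, and LINC00664 is low on every HSF1 array (3.80 to 4.68).

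In all, 30 members were called in H9, 16 higher and 14 lower, against 16.4% of all 16572 genes, 3.45% higher and 13% lower. In HSF1 19 were called, 12 higher and 7 lower, against 18.3% of all genes, 8.57% higher and 9.78% lower. The lines shared 9 calls, 30% of those of H9 and 47.4% of those of HSF1, all in the same direction. Such an overlap was not counted over all genes, so nothing about LINC genes is read from it. Besides the 4 genes above, which rose, LINC01138 fell by -0.45 in H9 and -0.57 in HSF1, LINC01278 by -0.53 and -0.46, LINC00540 by -0.42 and -0.47, and LINC01315 by -0.39 and -0.35. The other 2 probe sets of LINC01138, which are dimmer, read -0.11 and 0.09 in H9 and 0.00 and 0.09 in HSF1. They do not show its fall. The cross-matching probe set of LINC00623 fell by -0.25 and -0.22. LINC00458, LINC01278, LINC01315 and LINC01896 were called in both feeder comparisons and both medium comparisons. On the probe sets used, LINC00458 rose in all 4, LINC01278 and LINC01315 fell in all 4, and LINC01896 changed direction between experiments. The second, dimmer probe set of LINC01278 read 0.62 and 0.48 in the feeder comparisons under DMSO and the inhibitor. In conditioned medium it read 0.23 in H9 and -0.11 in HSF1. That of LINC01896 read 0.64 and 0.46 in the feeder comparisons, so the change of direction holds for the brighter set only.

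The arrays of H9 differed in a measure of RNA quality. The gap between 3′ and 5′ ACTB control probes was 1.42 to 1.84 in conditioned medium, against 1.07, 3.25 and 2.89 in unconditioned replicates 1, 2 and 3. The number of members called in H9 was 43 without unconditioned replicate 1, when 32% of all genes were called, and 13 without replicate 2 or without replicate 3, when 10.7% and 8.01% were. It was 14 and 17 without conditioned replicates 1 and 2 (12.6% and 10.8% of all genes). Without both unconditioned arrays of high ACTB gap it was 6 (3.96% of all genes), in a repeat chosen after seeing the data, and it was 11 with the ACTB gap as a covariate (8.86%). The H9 rises of LINC00458, LINC01356, LINC01844 and LINC01896 and the fall of LINC01315 kept their call in every planned repeat.

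The interaction of line and medium called 7 members, 6 with a more positive effect in HSF1 and 1 with a less positive one, against 7.73% of all genes, 5.65% and 2.08% by direction. LINC00698 was the clearest case beside LINC01844. It had 8.96, 9.23 and 9.11 in HSF1 in conditioned medium, against 8.05, 8.16 and 8.26 in unconditioned medium. In H9 it had 7.33, 7.83 and 7.93, against 7.54, 7.79 and 7.86. It rose by 0.94 in HSF1 (limma adjusted p = 9.15e-05) and differed by -0.03 in H9. Its nearest coding gene SYNPR, a synaptic vesicle protein gene, read 0.52 in HSF1 and -0.44 in H9. The interaction count ran from 2 to 18 when single arrays were left out, highest without H9 unconditioned replicate 1 (19.8% of all genes) and lowest without H9 unconditioned replicate 3 or HSF1 unconditioned replicate 1 (4.4% and 3.1%). It was 3 without H9 conditioned replicate 1, HSF1 unconditioned replicate 3, or HSF1 conditioned replicate 2 or 3, and 4 without H9 conditioned replicate 2 or HSF1 unconditioned replicate 2, with 4.18% to 4.8% of all genes called in these 6 repeats.

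**Figure D5:**
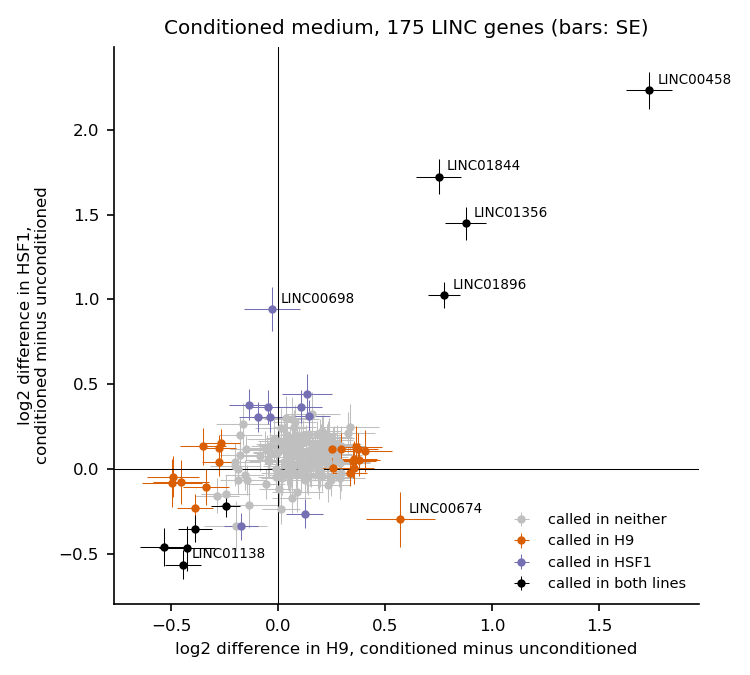
Conditioned minus unconditioned log2 difference in HSF1 (vertical) against that in H9 (horizontal) for 175 members, with SE bars and colours for calls in H9, HSF1, both or neither. LINC00458 is farthest from 0 in both lines, LINC01844 and LINC01356 lie above the diagonal, and LINC00674 lies apart at 0.57 in H9 and -0.30 in HSF1.

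The lines themselves differed most in LINC00664, a gene in a zinc finger gene region. It had 4.24, 4.68 and 4.42 in HSF1 in unconditioned medium, against 8.47, 8.57 and 8.56 in H9. The difference was -4.09 (SE 0.10, limma adjusted p = 3.23e-14). In the first experiment it had 3.80 to 4.10 on the 4 HSF1 arrays, 6.79 to 8.58 on those of H9 and 6.62 to 7.96 on those of H1. HSF1 was thus lower in every culture condition, by -3.68 against H9 and -3.30 against H1 (limma adjusted p = 3.23e-06 and 9.39e-06). As HSF1 lies under the array median, the size is bounded by background. Its other 2 probe sets were lower by -1.78 and -3.20. The nearest coding gene, ZNF429, read -0.05 between the lines in unconditioned medium (limma adjusted p = 0.769).

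In unconditioned medium 28 members were called between HSF1 and H9, 13 higher and 15 lower in HSF1, against 23.6% of all genes, 10.2% higher and 13.4% lower. In the first experiment 6 were called, 1 higher and 5 lower (1.66% of all genes, 0.389% higher and 1.27% lower). The 2 comparisons shared 4 calls, 66.7% of the first experiment's and 14.3% of the second's, an overlap not counted over all genes. LINC00664 and LINC01844 were lower and LINC02688 higher in HSF1 in both, while LINC01224 was higher in HSF1 in unconditioned medium (0.45) and lower in the first experiment (-0.82). LINC00662 had 6.28, 6.69 and 6.80 in HSF1 in unconditioned medium, against 8.32, 7.98 and 7.99 in H9, a difference of -1.50 (SE 0.15, limma adjusted p = 2.14e-06) that all 5 of its probe sets shared in sign. Its difference was -0.34 in the first experiment (SE 0.19, limma adjusted p = 0.258). Whether these differ between the experiments was not tested.

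Other members lower in HSF1 in unconditioned medium were LINC02987 (-0.83), LINC00992 (-0.76), LINC02893 (-0.64), LINC00458 (-0.42) and LINC02035 (-0.40). Higher ones were LINC01896 (0.80), LINC00674 (0.66), LINC02985 (0.58), LINC01003 (0.53), LINC00173 (0.44), LINC00698 (0.43) and LINC00545 (0.40). The other probe sets of LINC00674 read -0.12, -0.13 and 0.14, so they do not show its difference. The members called in this comparison numbered 28. The count was 17 without HSF1 unconditioned replicate 3, when 14.9% of all genes were called. Against H1, HSF1 had 14 members called, 5 higher and 9 lower (5.13% of all genes, 1.12% higher and 4.02% lower). Among them were LINC01000 (-1.06), LINC01278 (-0.95) and LINC00992 (-0.87). In 6 alternatives the calls of LINC01000 and LINC00992 were each lost in 4 and that of LINC01278 in 2. LINC00664 and LINC01224 kept theirs in all 6. The count against H1 was 5 without the FS HSF1 arrays, when 3.51% of all genes were called. Between H9 and H1 0 members passed by limma (0.424% of all genes, 0.0929% higher and 0.331% lower), with 7 at an unadjusted p under 0.05. Without the FS HSF1 arrays 10 members passed (5.71%), when 15.1% of all genes did.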

How the data were processed

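RNA of 24 cultures was measured on a human genome-wide expression array. The authors deposited log2 values made with RMA, per the submitters' processing notes, with the software version not given in the sources used here. No counts exist, and the number of arrays limits precision. Members and lists were chosen with earlier results of these data known. Each gene was represented by its brightest probe set naming 1 symbol, and genes above log2 5 on at least 3 of the 12 arrays of an experiment were tested with limma 3.58.1 in R 4.3.3 (lmFit, eBayes with trend), adjusted by Benjamini-Hochberg over all genes at 0.05. In the first experiment the line was a block, since replicate numbers there are lines. In the second, same-numbered arrays deviated with correlations from -0.21 to 0.31, so the numbers were not used. Named members were the 12 brightest, up to 8 largest rises and falls per comparison, those next to the limit, and a list of LINC genes looked for by name. The fit was tested on simulated data. Alternatives were quantile normalization, a common median, other filters, the mean of all probe sets, blocks, an ACTB covariate and left-out arrays.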

Additional observations from a re-analysis of the deposited data

Results flagged for a closer look

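The test of the line by medium interaction (limma, adjusted p under 0.05) called 7 members between HSF1 and H9, and these calls were unequally stable. In 19 alternatives LINC01844 and LINC00698 kept the call each time, LINC01356 in 15 and LINC01963 in 11. LINC00674 kept it in 7, LINC02985 in 5 and LINC00294 in 4, so these 3 calls depend on the processing. LINC01844 rose by 1.73 in HSF1 and 0.75 in H9, a difference of 0.98. LINC00698 read 0.94 and -0.03, a difference of 0.97. LINC01356 rose by 1.45 and 0.88, a difference of 0.57. LINC01963 read 0.38 and -0.14, a difference of 0.51. LINC00294 read 0.15 and -0.27, a difference of 0.42. LINC02985 read 0.12 and -0.28, a difference of 0.40. LINC00674 read -0.30 in HSF1 and 0.57 in H9, a difference of -0.87. Its next probe set, nearly as bright (mean 6.49 against 6.71), read -0.15 in HSF1 and -0.19 in H9. Its dimmer sets read 0.11 and -0.09 in HSF1 and -0.03 and 0.30 in H9. In H9 in unconditioned medium LINC00674 had 6.94, 6.37 and 6.20, lower in replicates 2 and 3, which also had ACTB 3′ minus 5′ gaps of 3.25 and 2.89. With the ACTB gap as a covariate, the interaction called 2.86% of members and 5.38% of all genes, and LINC01844 and LINC00698 kept their calls. Beyond this repeat, the part of RNA quality in these differences was not tested.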

How the results depend on the processing

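For the 109 single results of named members, 1515 repeats under alternatives kept the call in 1269 and lost it in 246, with 0 reversed, and 37 results kept it in every repeat. Quantile normalization gave 42 FS against FF calls under DMSO (35 higher, 7 lower) and 54 under the inhibitor (44 higher, 10 lower). Of all genes 18.3% and 24.4% were then called. HSF1 against H1 had 4 (0 higher, 4 lower, 2.35% of all genes). Conditioned medium in H9 had 16 higher and 7 lower (13.3% of all genes), and the interaction split was 4 and 2 (7.6%). Quantile normalization moved the FS against FF median of all genes under DMSO to 0.04 and left that of members at 0.47. HSF1 against H1 had 8 calls with no filter (3.88% of all genes). Averaging the probe sets of a gene gave 8 for HSF1 against H1 and 18 for medium in H9 (3.98% and 12.7% of all genes). Without the FS HSF1 arrays there were 9 calls for the mean inhibitor effect and 14 for FF cells (7.94% and 9.67% of all genes). HSF1 against H9 had 10, H9 against H1 10 and HSF1 against H1 5 (8.22%, 15.1% and 3.51%). With no replicate block for line, the pairing ignored, there were 20 and 47 FS against FF calls (10.7% and 19.3% of all genes). The mean inhibitor effect then had 0 and FF cells 1 (0.192% and 0.36%). With a replicate block in the second experiment, medium called 31 in H9 and 20 in HSF1 (16.6% and 18.4% of all genes). The interaction then called 8 and the lines 28 (8.27% and 23.2%), so no count moved by over 1.5 times. Leaving out 1 line gave 3 to 56 (DMSO), 4 to 70 (inhibitor), 0 to 4 for the mean inhibitor effect and 0 to 4 for FF cells. Leaving out 1 array gave 13 to 43 for medium in H9, 13 to 23 in HSF1, 2 to 18 for the interaction and 17 to 29 for HSF1 against H9 in unconditioned medium. The ACTB covariate gave 11 for medium in H9 and 17 for HSF1 against H9. Leaving out both H9 unconditioned arrays of high ACTB gap, chosen after seeing the data, gave 6. The cause of these moves was not tested. Levels near the array median limit the dim members, whose folds are uncertain.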

Other observations

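Other long noncoding RNAs, with names rather than LINC numbers, were looked at from a list of 60, of which 33 could be tested in the first experiment and 32 in the second. Under DMSO 6 were higher (18.2%) and 12 lower (36.4%) in FS cells, when 15.2% and 24.1% of all genes were. SOX2-OT, which overlaps the pluripotency gene SOX2, fell by -1.93 (SE 0.21, limma adjusted p = 0.000471), RMST, known from neural differentiation, by -1.46 (0.00599), and MIAT by -1.39 (0.00122). FENDRR, known from lateral mesoderm in mouse, rose by 1.06 (limma adjusted p = 0.00737), and the imprinted gene MEG3 by 0.70 (0.0168).

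Under the inhibitor compared with DMSO none of the 33 passed in limma in either culture system or on average over both. In conditioned medium SOX2-OT rose by 1.39 in HSF1 (SE 0.20, limma adjusted p = 0.000164) and read 0.60 in H9 (0.0558). MIAT fell in both lines, by -0.69 in HSF1 (limma adjusted p = 8.99e-06) and -0.37 in H9 (0.00359). Of the 32, 6 were higher (18.8%) and 3 lower (9.38%) in HSF1, against 8.57% and 9.78% of all genes. In H9 3 were higher and 3 lower (9.38% each), against 3.45% and 13% of all genes.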
